A study of Homo sapiens with 12 samples.

Results

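Lysine acetyltransferases and the BET proteins that read their mark were followed at the RNA level in K562 cells, a human erythroleukaemia line. The 9 genes were chosen by symbol: EP300, CREBBP, KAT2A, KAT2B, KAT5, KAT6A, KAT7, BRD2 and BRD3. All 9 were found among the 28278 genes of the count table, and all 9 were among the 15805 genes that passed the filter on low counts, with at least 367 counts in any library. Unedited cells (WT) were compared with cells knocked out for HRG1 (KO), a heme transporter encoded by SLC48A1, in a study of how erythroid cells acquire heme. Each genotype was either left untreated (control) or given sodium butyrate. The first dose of 0.75 mM came 24 h after plating, a second followed after another 48 h, and RNA was taken 6 h after that. The series places the samples at day 8 of differentiation. Each of the 4 groups held 3 libraries. No label says how many KO clones were used or whether replicates were separate cultures, so p-values measure the spread between these libraries, which may be technical.

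Acetyltransferases transfer an acetyl group from acetyl-CoA to lysines of histones and other proteins, histone deacetylases remove it, and bromodomain proteins such as the BET family bind acetylated lysines and help recruit the transcription machinery. Sodium butyrate inhibits histone deacetylases, which raises histone acetylation, and it is widely used to push K562 cells towards erythroid differentiation. EP300 and CREBBP encode the related coactivators p300 and CBP, which the erythroid factor GATA1 uses. KAT2A and KAT2B encode GCN5 and PCAF, alternative catalytic subunits of the SAGA and ATAC complexes. KAT5 encodes TIP60 of the NuA4 complex, and KAT6A (MOZ) and KAT7 (HBO1) encode further enzymes of the MYST family. BRD2 and BRD3 encode BET readers, and BRD3 protein is known to bind acetylated GATA1.

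Library totals ranged from 19963594 to 30348538 counts, and SLC48A1 held 55 to 313 counts in the KO libraries against 1357 to 1945 in the WT libraries. All 10 erythroid markers examined exceeded 3 counts in all 12 libraries. Their summed level was 8233 to 17933 CPM (counts scaled to library size, with TMM factors) in untreated WT, 26405 to 56821 in treated WT, 3473 to 6147 in untreated KO and 4387 to 6395 in treated KO. A list of 6 fibroblast or stromal markers summed to 2.35 to 5.21 CPM in untreated and 44.0 to 157 CPM in treated libraries, of which COL1A1 alone reached 154 CPM. A list of 6 lymphoid markers stayed within 5.14 to 27.1 CPM, and 6 megakaryocyte markers summed to 15.0 to 54.5 CPM in untreated and 76.8 to 211 CPM in treated libraries. A list of 6 monocyte or granulocyte markers summed to 16.6 to 29.4 CPM in WT and 19.4 to 93.6 CPM in KO. One marker in each of the stromal, lymphoid and megakaryocyte lists was at 0 in all 12 libraries. The part of these shifts in the results below was not tested. Reads of RNA28SN5, a ribosomal RNA gene, took 0.673% to 5.63% of a library and were most frequent in replicate 1 of every group. In a principal component analysis of all tested genes, replicate 1 of both treated groups lay nearer to the untreated libraries than replicates 2 and 3 did, so the butyrate results were also computed without the 4 libraries numbered 1.

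The p300 and CBP genes are shown first through the sequences in front of their start sites. A link between these sequences and the RNA levels was not tested. EP300 lies at chr22:41092592-41180077 on the plus strand and CREBBP at chr16:3725054-3880713 on the minus strand (GRCh38). The 150 bases before each start, from RefSeq on GRCh38.p14, are written 5′ to 3′ with capitals marking GC boxes (GGGCGG) and the core of the cyclic AMP response element (TGACG) on either strand. They span chr22:41092442-41092591 on the plus strand for EP300 and chr16:3880714-3880863 on the minus strand for CREBBP.
EP300: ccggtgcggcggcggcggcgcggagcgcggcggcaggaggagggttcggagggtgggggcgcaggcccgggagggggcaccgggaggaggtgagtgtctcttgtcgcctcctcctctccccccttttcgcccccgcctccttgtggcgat
CREBBP: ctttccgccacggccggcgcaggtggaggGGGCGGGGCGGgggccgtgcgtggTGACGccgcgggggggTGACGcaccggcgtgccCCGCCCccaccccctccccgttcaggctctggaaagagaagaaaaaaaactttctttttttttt
The CREBBP window held 3 GC boxes, of which a pair overlapped by a single base, and 2 TGACG sites. In the 250 bases before the EP300 start none of 7 motifs was found on either strand, namely the 2 above, the CCAAT box, the E-box CACGTG, the GATA motif AGATAA, the ETS motif CCGGAAGT and the NRF1 palindrome. Among 27305 promoters of that length, 42.3% held GGGCGG and 21.7% held TGACG. RefSeq promoters were matched for 8 of the 9 genes. KAT5 held 1 CACGTG, which 6.49% of promoters held, together with 2 CCGGAAGT, which 3.64% of promoters held, and 3 TGACG. KAT7 held 2 TGACG and 1 CCGGAAGT, and KAT2A held 1 TGACG. GC boxes numbered 6 before BRD3, 3 before KAT2B and 1 before BRD2. These matches describe letters in a window and not occupied sites.

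Measured per kilobase of exon (exon unions from GENCODE v29), BRD2 was by far the most abundant of the 9, with a median over the 12 libraries of 162 CPM per kb and a range of 89.5 to 217. KAT2A followed at 22.8 CPM per kb and KAT2B at 7.26. The next were KAT5 at 6.52, EP300 at 5.99, BRD3 at 5.65 and KAT7 at 5.41 CPM per kb, then CREBBP at 3.82 and KAT6A at 2.45. BRD2 exceeded KAT2A, and KAT2A exceeded KAT2B, in 12 of 12 libraries. KAT7 exceeded CREBBP in 11 libraries, CREBBP exceeded KAT6A in 10 and KAT2B exceeded KAT5 in 9. This order depends on the lengths used. Before division, the median was 59.2 CPM for CREBBP and 59.3 CPM for KAT6A, whose exon unions were 15492 and 24175 bases. An exon union can be longer than the transcripts present in these cells, which were not measured. The middle of the order was not separated: KAT5 exceeded EP300 in 6 libraries, EP300 exceeded BRD3 in 7 and BRD3 exceeded KAT7 in 8. BRD2 transcripts thus outnumbered those of every acetyltransferase gene listed, while neighbours from KAT5 to KAT7 could not be ranked.

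**Figure D1:**
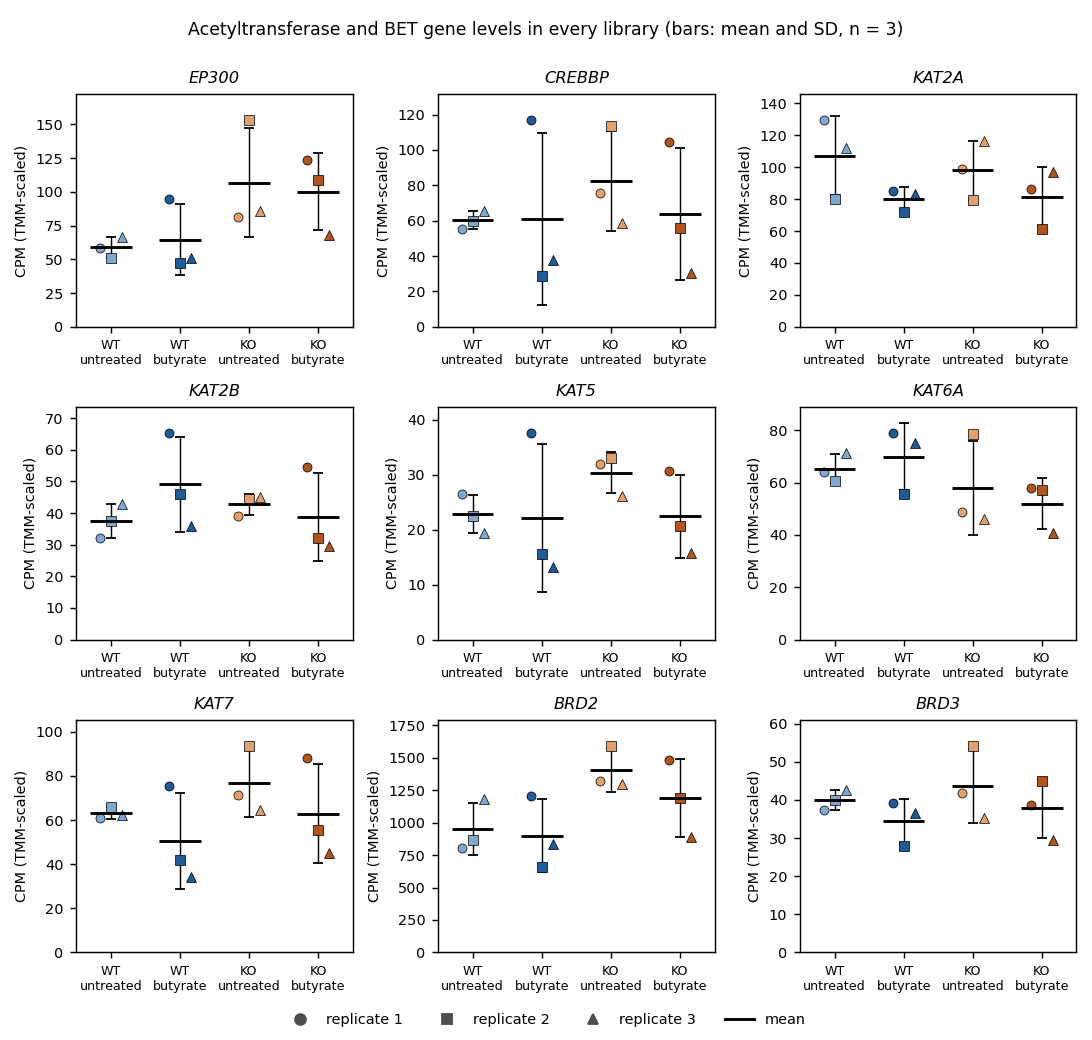
TMM-scaled CPM (vertical axes, starting at 0) of the 9 genes in every library of the 4 groups, with circles, squares and triangles for replicates 1, 2 and 3 and black bars for the mean and SD of 3 libraries. In treated WT the circle is the highest point for 9 of 9 genes, and in untreated cells the KO libraries of EP300 and BRD2 all lie above the WT libraries.

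EP300 was higher in the KO libraries. Its level in replicates 1, 2 and 3 was 58.5, 51.2 and 66.6 CPM in untreated WT and 81.4, 153 and 85.8 CPM in untreated KO. All 3 untreated KO libraries lay above all 3 WT libraries, with replicate 2 of KO highest. Under butyrate EP300 stood at 94.9, 47.5 and 51.3 CPM in WT and at 124, 108.5 and 68.3 CPM in KO. Here the groups overlapped, because replicate 1 of treated WT was above replicate 3 of treated KO. By the edgeR quasi-likelihood fit over all tested genes, the untreated difference was 0.86 in log2 units (standard error, SE, 0.33; 95% interval 0.15 to 1.57; Benjamini-Hochberg adjusted p = 0.0775), short of the threshold of 0.05. In treated cells the difference was 0.63 (SE 0.33, adjusted p = 0.207).

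Averaged over both treatments, EP300 was 1.68-fold higher in KO than in WT (95% interval 1.19 to 2.37), a log2 difference of 0.75 (SE 0.23, edgeR adjusted p = 0.0225). This averaged contrast was chosen after the values of these genes had been seen, and 36.6% of all tested genes passed it. With 1 library left out at a time, the difference ranged from 0.55 to 0.92. The call was lost without replicate 2 of untreated KO (0.55, adjusted p = 0.0765), without replicate 3 of treated WT (0.66, adjusted p = 0.0615), without replicate 2 of treated WT (0.66, adjusted p = 0.0567), without replicate 2 of treated KO (0.70, adjusted p = 0.0557), without replicate 2 of untreated WT (0.70, adjusted p = 0.054) and without replicate 1 of treated KO (0.66, adjusted p = 0.0506). Without replicate 1 of treated WT, the treated difference alone reached 1.01 (edgeR adjusted p = 0.0376). EP300 lies on chromosome 22, where the other 416 tested genes had a median log2 difference of 0.27 in untreated and 0.41 in treated cells between KO and WT. Of its 20 nearest tested genes, 17 were above 0 in untreated cells with a median of 0.47. The median over all tested genes was 0.02, so the region around EP300 was shifted in the same direction as the gene. Reads of EP300-AS1, on the opposite strand, numbered 0 to 154 against 1080 to 3285 for EP300.

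CREBBP, the paralogue of EP300, varied more between libraries of a group than between groups. It stood at 55.4, 59.9 and 65.4 CPM in untreated WT and at 117, 28.5 and 37.6 CPM in treated WT. Untreated KO gave 75.7, 114 and 58.4 CPM, and treated KO gave 104, 55.9 and 30.6 CPM. Replicate 1 was the highest library of both treated groups, and the 4 groups overlapped. The highest of the 12 CREBBP values was 4.10 times the lowest, the widest range among the 9 genes. The butyrate difference was 0.02 in WT (SE 0.51, 95% interval -1.08 to 1.12) and -0.38 in KO (SE 0.51, 95% interval -1.48 to 0.72), so a change of up to about 2-fold either way remained within the interval in WT.

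KAT2A, the GCN5 gene, was lower on average in treated than in untreated cells of both genotypes. Untreated WT libraries held 130, 80.3 and 112 CPM and treated WT libraries 85.4, 72.3 and 83.3 CPM. The corresponding values in KO were 98.6, 79.5 and 116 CPM untreated and 86.5, 61.0 and 96.9 CPM treated. The ranges overlapped in both genotypes, although within each replicate number the treated library was below the untreated one in 6 of 6 pairs. The log2 difference was -0.42 in WT (SE 0.23, edgeR adjusted p = 0.376) and -0.27 in KO (SE 0.23, adjusted p = 0.565). Averaged over genotypes, a contrast also chosen after the values had been seen, it was -0.34 (SE 0.16, adjusted p = 0.177). With the replicate number as a block in the model, KAT2A was the only one of the 9 genes called in that average (-0.34, SE 0.11, edgeR adjusted p = 0.0388), beside 26.5% of all tested genes. Between genotypes it differed by -0.13 untreated (95% interval -0.63 to 0.37) and 0.02 treated (95% interval -0.48 to 0.52).

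KAT2B, encoding PCAF, gave opposite signs in the genotypes. In WT it went from 32.2, 37.4 and 42.8 CPM untreated to 65.4, 46.0 and 35.8 CPM treated. In KO it went from 39.0, 44.3 and 45.0 CPM untreated to 54.7, 32.2 and 29.5 CPM treated. Replicates 1 and 2 of treated WT and replicate 1 of treated KO exceeded all untreated libraries of their genotype, the other treated libraries did not, and the groups overlapped. The log2 difference with butyrate was 0.39 in WT (SE 0.27, edgeR adjusted p = 0.505) and -0.14 in KO (SE 0.27, adjusted p = 0.824). The difference between these effects was -0.53 (SE 0.38, 95% interval -1.36 to 0.30, adjusted p = 1.00). In untreated cells KAT2B differed by 0.19 between KO and WT, while the other 825 tested genes of chromosome 3 had a median of 0.45.

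Among the MYST genes, KAT5 held 26.5, 22.6 and 19.5 CPM in untreated WT and 37.6, 15.7 and 13.1 CPM in treated WT. Untreated KO gave 31.9, 33.0 and 26.1 CPM, and treated KO gave 30.6, 20.7 and 15.8 CPM. Replicates 2 and 3 were lower with butyrate in both genotypes, and replicate 1 was higher in WT and nearly level in KO. The butyrate differences were -0.05 in WT (SE 0.37) and -0.44 in KO (SE 0.37, edgeR adjusted p = 0.556). RNASEH2C overlaps KAT5 on the opposite strand with 612 to 1411 counts against 367 to 780 for KAT5, and without a stated strand setting reads in the shared stretch cannot be told apart.

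KAT7, the HBO1 gene, stood at 60.8, 65.9 and 62.4 CPM in untreated WT and at 75.3, 41.8 and 34.3 CPM in treated WT. Untreated KO held 71.2, 93.7 and 64.7 CPM, and treated KO held 87.9, 55.6 and 44.9 CPM. In WT the untreated libraries lay close together, and the treated ones fell on both sides of them. In KO, replicate 1 was higher and replicates 2 and 3 were lower with butyrate. The butyrate differences were -0.32 in WT (SE 0.31, edgeR adjusted p = 0.638) and -0.29 in KO (SE 0.30, adjusted p = 0.655). FAM117A overlaps KAT7 on the opposite strand, with 789 to 4560 counts.

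KAT6A had a lower mean in KO than in WT in both treatments. Values were 64.1, 60.5 and 71.4 CPM in untreated WT and 79.1, 55.5 and 75.3 CPM in treated WT. In KO they were 48.9, 78.5 and 46.1 CPM untreated and 58.0, 57.3 and 40.8 CPM treated. A single untreated KO library, replicate 2, stood above all WT controls while the other two stood below them. The genotype difference was -0.18 untreated (SE 0.24, edgeR adjusted p = 0.654) and -0.43 treated (SE 0.24, adjusted p = 0.249). Averaged over treatments it was -0.30 (SE 0.17, adjusted p = 0.185). With libraries left out, that average ranged from -0.47 to -0.24, with edgeR adjusted p up to 0.328. It was called in 1 of 13 such fits, without replicate 2 of untreated KO (-0.47, SE 0.16, adjusted p = 0.0399). Over these fits, 5045 to 6774 of all tested genes were called.

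BRD2, the abundant BET reader at chr6:32968594-32981505, was higher in untreated KO than in untreated WT. Its levels were 805, 868 and 1182 CPM in untreated WT and 1318, 1592 and 1296 CPM in untreated KO, with no overlap. With butyrate they were 1203, 656 and 837 CPM in WT and 1484, 1190 and 887 CPM in KO, where the ranges overlapped. The log2 difference between KO and WT was 0.56 untreated (SE 0.27, edgeR adjusted p = 0.161) and 0.40 treated (SE 0.27, adjusted p = 0.346). Averaged over treatments it was 0.48 (SE 0.19, 95% interval 0.07 to 0.89, adjusted p = 0.0655), and with the replicate number as a block the average passed the threshold (0.48, SE 0.18, edgeR adjusted p = 0.0416), as it did for 46.7% of all tested genes. The 20 tested genes nearest to BRD2 had a median difference of 0.55 in untreated cells, 14 of them above 0, and 1.46 in treated cells, 19 of them above 0. HLA-DMA overlaps BRD2 on the opposite strand with 7 to 249 counts, against 14855 to 38772 for BRD2.

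BRD3 and KAT6A had the narrowest ranges of the 9 genes, the highest of 12 values being 1.94 times the lowest in both. It held 37.4, 40.0 and 42.5 CPM in untreated WT and 39.1, 28.0 and 36.5 CPM in treated WT. Untreated KO gave 41.8, 54.2 and 35.2 CPM, and treated KO gave 38.7, 45.0 and 29.5 CPM. The groups overlapped in each of the 4 comparisons. Butyrate differences were -0.21 in both genotypes (SE 0.22 in each), and genotype differences were 0.13 in both treatments (SE 0.22 in each), with intervals that excluded a 2-fold change in each of these 4 comparisons. BRD3OS, on the opposite strand, held 86 to 619 counts.

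Across the planned contrasts, 0 of the 9 genes passed adjusted p under 0.05. The share of all tested genes that did was 2.35% for butyrate in WT, 3.4% for butyrate in KO, 22.6% for KO against WT in untreated cells and 19% in treated cells, by the edgeR fit. For the difference between the butyrate effects of KO and WT the share was 0%, with 658 genes at an unadjusted p under 0.05 and 78 genes called by DESeq2. At an unadjusted p under 0.05, 1 of the 9 was found in untreated KO against WT and 0 in each of the other 4 contrasts. Of the 15805 tested genes, 5475 were at that level in untreated and 4993 in treated KO against WT. With butyrate they numbered 2849 in WT and 3122 in KO. DESeq2 called 0 of the 9 in each of the 5 contrasts. At the adjusted threshold, 0 of 9 for butyrate was thus near the background share. In bulk RNA, fewer cells that express a gene and less RNA of it per cell cannot be told apart.

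The groups did not overlap for 0 of the 9 genes with butyrate in WT and 0 in KO, where 21.7% and 24.4% of all tested genes were so separated. For untreated KO against WT they did not overlap for 2, EP300 and BRD2, both higher in KO, beside 42.3% of all tested genes. In treated cells they did so for 0, beside 33.9%. The median log2 difference of the 9 genes was -0.05 for butyrate in WT and -0.24 in KO, where 9 of 9 were below 0, against medians of 0.02 and 0 over all tested genes. Between KO and WT the median was 0.28 untreated and 0.06 treated, against 0.02 and -0.002 over all tested genes. The 95% interval lay within 2-fold either way for 8 genes with butyrate in WT, 7 in KO, 5 for untreated KO against WT and 7 for treated. Averaged over genotypes, 0 of 9 passed for butyrate, beside 14.6% of tested genes, and averaged over treatments 1 of 9, EP300, passed for genotype, beside 36.6%.

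**Figure D2:**
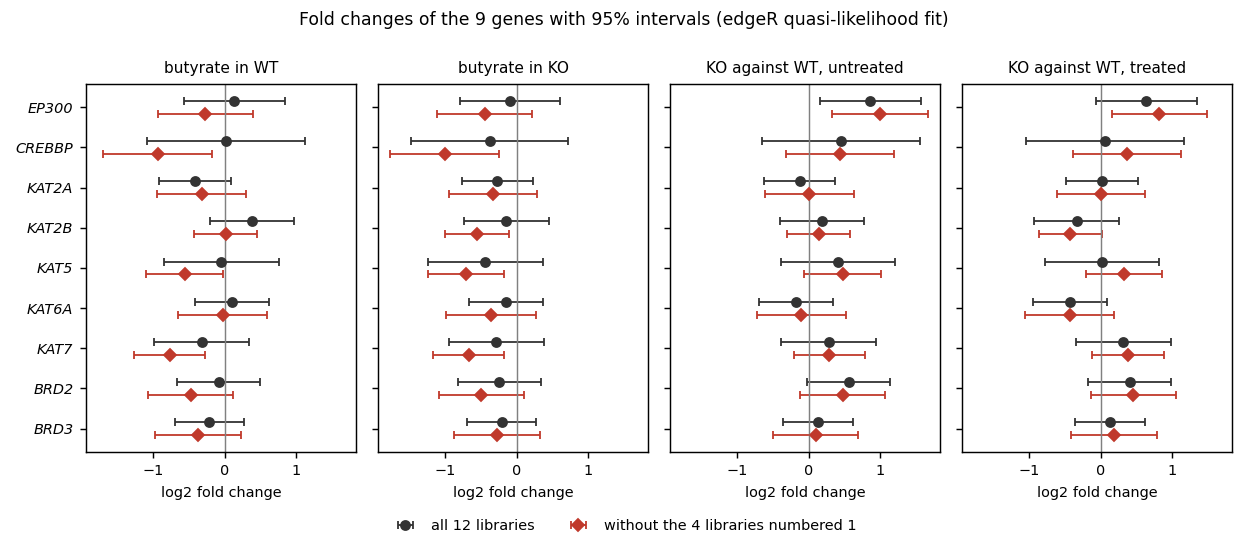
Log2 fold changes (horizontal axes) of the 9 genes with 95% intervals in the 4 contrasts, from the edgeR fit of all 12 libraries (black circles) and of the 8 libraries left without number 1 (red diamonds). In the butyrate panels the red diamonds of CREBBP, KAT5 and KAT7 lie left of the black circles with intervals below 0, and in the treated genotype panel the red diamonds of CREBBP and KAT5 lie right of the black circles with intervals that include 0.

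The butyrate differences depended on the libraries numbered 1. In treated WT, replicate 1 was the highest library for 9 of 9 genes, and in treated KO it was the highest for 7 of 9, while replicate 3 of treated KO was the lowest for 8 of 9. Without the 4 libraries numbered 1, a repeat chosen because earlier results had shown the treated ones standing apart, the median of the 9 butyrate differences was -0.37 in WT and -0.49 in KO, against 0.006 and 0 over all genes tested. All treated libraries then lay below all untreated ones for CREBBP, KAT5, KAT7, BRD2 and BRD3 in WT, 5 of 9, and for CREBBP, KAT2B, KAT5, KAT7 and BRD2 in KO, 5 of 9. With 2 libraries against 2, that held for 28.8% of all genes tested in WT and 26.7% in KO.

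In that repeat the count of called genes stayed at 0 of 9 in either genotype alone, where 11.4% and 13.1% of all tested genes were called. Averaged over genotypes, 3 of the 9 were called, all lower with butyrate, beside 28.8% of all tested genes. The CBP gene CREBBP fell by 0.97 in log2 units, with an SE of 0.24 and an edgeR adjusted p of 0.0142. KAT7 fell by 0.72 (SE 0.16, adjusted p = 0.00809) and KAT5 fell by 0.63 (SE 0.17, adjusted p = 0.0199). With all 12 libraries the same averages were -0.18 for CREBBP, -0.30 for KAT7 and -0.24 for KAT5, with adjusted p of 0.785, 0.372 and 0.575. BRD2 stood at -0.48 without number 1 (SE 0.19, adjusted p = 0.0817) and EP300 at -0.36 (SE 0.21, adjusted p = 0.231), both short of the threshold. KAT2B, whose difference in WT was 0.39 with all libraries, stood at 0.01 there without number 1 and at -0.55 in KO (SE 0.20, adjusted p = 0.0945).

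Between genotypes, the median of the 9 differences in the repeat was 0.28 untreated, the same as with all libraries, and 0.32 treated, where it had been 0.06. In treated cells CREBBP stood at 0.37 without number 1 against 0.06 with all libraries, and KAT5 at 0.32 against 0.02, both short of the threshold (adjusted p = 0.477 and 0.365). EP300 was called in untreated KO against WT (1.00, SE 0.30, edgeR adjusted p = 0.0338) beside 26.2% of all tested genes, and in the average of both treatments (0.91, SE 0.21, adjusted p = 0.0065) beside 41.2%. In treated cells 0 of 9 were called, beside 24.7%. BRD2 gave 0.46 in the average (SE 0.19, adjusted p = 0.0723). The direction of the EP300 and BRD2 averages was thus the same with and without the libraries numbered 1.

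Ratios of paralogous genes within a library do not depend on library scaling, and 6 such tests were made. EP300 to CREBBP counts stood in ratios of 1.06, 0.854 and 1.02 in untreated WT and 0.811, 1.67 and 1.36 in treated WT. They stood at 1.07, 1.35 and 1.47 in untreated KO and 1.18, 1.94 and 2.23 in treated KO. Within each genotype, replicates 2 and 3 had a higher ratio with butyrate, replicate 1 of WT had a lower one, and the untreated KO values were all above the untreated WT values. On the log2 scale the ratio differed by 0.38 with butyrate (two-sided exact permutation p = 0.095, adjusted 0.19), or by 0.63 without the libraries numbered 1 (exact p = 0.0556, adjusted 0.111), and by 0.45 between KO and WT (exact p = 0.06, adjusted 0.18). Neither passed. The smallest p the permutations allow is 0.005 with all 12 libraries. Without the libraries numbered 1 there are 36 arrangements and the smallest p is 0.0556, so that repeat could not pass.

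BRD2 exceeded BRD3 in counts by 21.5, 21.7 and 27.8 times in untreated WT and by 31.5, 29.4 and 36.9 times in untreated KO, without overlap. In treated cells the ratio was 30.8, 23.5 and 22.95 in WT and 38.4, 26.4 and 30.04 in KO, with overlap. The log2 ratio was 0.38 higher in KO over both treatments (two-sided exact permutation p = 0.025), which did not pass after adjustment over the 6 tests (0.15), and differed by 0.03 with butyrate (exact p = 0.785). KAT2A to KAT2B went from 4.03, 2.15 and 2.62 in untreated WT to 1.31, 1.57 and 2.33 in treated WT, and from 2.53, 1.79 and 2.59 in untreated KO to 1.58, 1.90 and 3.29 in treated KO. The mean change with butyrate was -0.42 (exact permutation p = 0.155, adjusted 0.232), made up of -0.75 in WT and -0.08 in KO, and it was -0.05 without the libraries numbered 1. Between genotypes this ratio differed by 0.02 (exact p = 0.985).

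**Figure D3:**
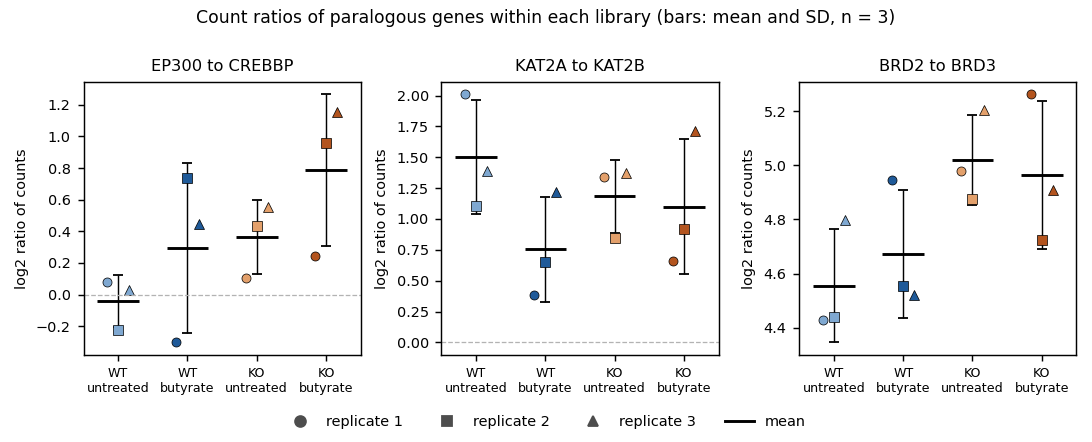
Log2 ratio of counts (vertical axes, not starting at 0 in every panel) of EP300 to CREBBP, KAT2A to KAT2B and BRD2 to BRD3 in every library, with the mean and SD of 3 libraries per group and marker shapes for the replicate number. In untreated cells the KO libraries lie above the WT libraries for EP300 to CREBBP and for BRD2 to BRD3.

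The genes whose log2 CPM ran most like each member over the 12 libraries are named as a description, since libraries share genotype, treatment and depth. CREBBP ran closest to NSD1 (Pearson r = 0.98) and GOSR1 (r = 0.97), and KAT7 to GOSR1 (r = 0.97) and IGF2BP1 (r = 0.97). For KAT5 they were HNRNPK (r = 0.97) and LSM14A (r = 0.96), for EP300 BIRC6 and MIEF1 (r = 0.94 each) and for BRD2 XIAP (r = 0.95) and CUL3 (r = 0.94). KAT6A ran with CELF1 (r = 0.91) and LIN54 (r = 0.89), BRD3 with KIF5B (r = 0.90) and SLC7A6 (r = 0.88), KAT2A with COX7C (r = 0.90) and UQCC3 (r = 0.89), and KAT2B with SLC30A10 (r = 0.87) and MAPK7 (r = 0.85). GOSR1 was thus among the nearest genes of both CREBBP and KAT7.

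The subunits, other readers and suppliers of acetyl-CoA that work with these enzymes were taken as 7 lists of 105 genes, of which 104 were tested. With butyrate, 1 partner rose and 2 fell in WT (2.88% of those tested), and 1 rose and 3 fell in KO (3.85%), beside 2.35% and 3.4% of all genes. The median log2 difference of the partners was -0.24 in WT and -0.26 in KO, against 0.02 and 0 over all tested genes. Without the libraries numbered 1, 2 rose and 15 fell in WT, and 2 rose and 20 fell in KO (16.3% and 21.2%), beside 11.4% and 13.1% of all genes. With the replicate number as a block, 11 partners were called in WT and 15 in KO (10.6% and 14.4%), beside 8.61% and 11.7% of all genes.

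Of the BET partners, HEXIM1, the inhibitor of the elongation kinase P-TEFb, rose in KO from 37.7 ± 8.16 to 92.1 ± 21.6 CPM (SD, n = 3 libraries each; log2 difference 1.29, SE 0.29, edgeR adjusted p = 0.0311). In WT it stood at 71.5 ± 18.3 CPM untreated and 151 ± 48.1 CPM treated, without passing the threshold there. HAT1, a histone acetyltransferase that acts on newly made histone H4, fell in KO by 0.91 (SE 0.18, adjusted p = 0.023), from 119 ± 27.7 to 63.2 ± 2.50 CPM. The SAGA subunit gene TAF9 fell by 0.91 in WT (SE 0.20, adjusted p = 0.0409) and by 0.86 in KO (SE 0.20, adjusted p = 0.0393). BAZ2B, a bromodomain gene, fell by 1.14 in WT (SE 0.25, adjusted p = 0.0344) and by 1.00 in KO (SE 0.24, adjusted p = 0.0439). DPF3, which reads acetylated histones within the BAF complex, rose in WT from 1.67 ± 1.16 to 7.72 ± 0.195 CPM (log2 difference 2.18, SE 0.40, adjusted p = 0.0182). In KO, DPF3 went from 13.7 ± 0.406 to 22.5 ± 4.29 CPM, also without passing. Each of these 7 calls held in 4 to 10 of 13 repeats with libraries left out. The lowest counts were for BAZ2B and TAF9 in KO (4 each), which missed the threshold without replicate 2 of untreated KO (BAZ2B, -0.79, edgeR adjusted p = 0.208) or replicate 2 of treated KO (TAF9, adjusted p = 0.175), among others. Without the 4 libraries numbered 1 all 7 passed, at 1.27 for HEXIM1 and -0.76 for HAT1 in KO, 1.85 for DPF3 in WT, -1.25 and -1.27 for BAZ2B in WT and KO, and -0.69 and -0.98 for TAF9 in WT and KO (edgeR adjusted p from 0.00689 to 0.0478).

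**Figure D4:**
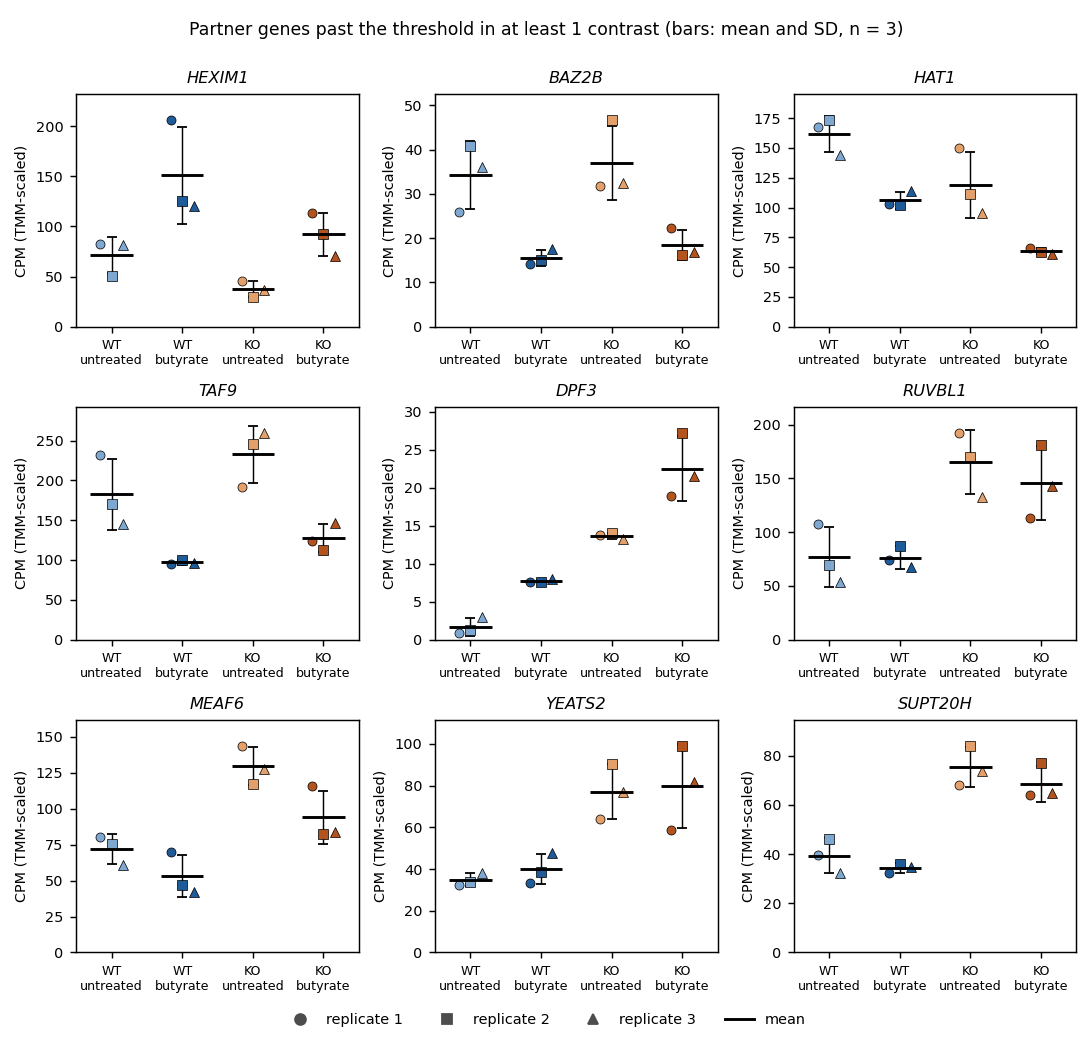
TMM-scaled CPM (vertical axes, starting at 0) of 9 partner genes in every library, with the mean and SD of 3 libraries per group and marker shapes for the replicate number. HEXIM1 lies higher and BAZ2B, HAT1 and TAF9 lie lower in the treated libraries of each genotype, and RUVBL1, MEAF6, YEATS2 and SUPT20H lie higher in the KO libraries.

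Between genotypes, 9 partners were higher and 8 lower in untreated KO (16.3% of those tested, beside 22.6% of all genes), and 12 were higher and 10 lower in treated KO (21.2%, beside 19%). In the SAGA and ATAC list, 3 of 24 rose and 1 fell untreated, led by YEATS2, an acetyl-lysine reader of ATAC, at 34.9 ± 3.01 CPM in WT and 77.2 ± 13.2 in KO (log2 difference 1.14, SE 0.23, edgeR adjusted p = 0.00299). SUPT20H, a SAGA subunit gene, was higher by 0.94 (SE 0.18, adjusted p = 0.00273) and TADA2A by 0.70 (SE 0.22, adjusted p = 0.0351). In the NuA4 list 2 of 16 rose in either treatment, RUVBL1 (1.10, SE 0.27, adjusted p = 0.0107 untreated) and MEAF6 (0.85, SE 0.22, adjusted p = 0.0162 untreated). The partners of all lists were not set against the other genes of their chromosomes, as EP300 and KAT2B were. The part of chromosome-wide shifts in these differences was not tested. None of the 8 scaffold subunits of KAT6 and KAT7 was called in either treatment, 0 of 8 in each. In the average of both treatments 1 of 8 was called, JADE1, higher in KO (0.55, SE 0.20, edgeR adjusted p = 0.0486), beside 36.6% of all tested genes. HEXIM1 was lower in untreated KO by 0.93 (SE 0.28, adjusted p = 0.0328), and HAT1 and TAF1 were lower in treated KO by 0.75 (SE 0.18, adjusted p = 0.0132) and 0.77 (SE 0.20, adjusted p = 0.0198).

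The list of 30 other acetyl-lysine readers held the widest differences, with 4 higher and 5 lower in untreated KO and 4 higher and 6 lower in treated KO. MLLT3, which encodes the YEATS reader AF9, had 0 to 1 counts in the 6 WT libraries and 810 to 1370 in the 6 KO libraries. Against a floor of 3 counts per library this was at least 279-fold higher untreated and at least 314-fold higher treated. Other genes, picked by hand from the same chromosome region, shifted in the same direction. ELAVL2 held 0 counts in WT and 20 to 76 in KO, and SLC24A2 held 0 to 8 and 48 to 332. FOCAD held 6 to 47 counts in WT and 38 to 138 in KO, with overlap. ELAVL2 and SLC24A2 thus shared the low counts in WT, while FOCAD was counted in every WT library. The neighbours of MLLT3 were not surveyed as a set, and the cause of its difference was not tested. DPF3 was higher in untreated KO, at 13.7 ± 0.406 against 1.67 ± 1.16 CPM (log2 difference 3.01, SE 0.41, edgeR adjusted p = 2.322e-04). CECR2 was lower, at 0.448 ± 0.222 against 2.23 ± 0.511 CPM (log2 difference -2.32, SE 0.56, adjusted p = 0.0104), and SP140 was lower in treated KO by 1.95 (SE 0.49, adjusted p = 0.0149). For the difference between the butyrate effects, 0 of 104 partners were called by edgeR and 0 by DESeq2.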

How the data were processed

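RNA was sequenced from 12 K562 libraries. Per the labels' protocols, total RNA was taken up in TRIzol and an outside company made the libraries. The authors deposited whole-number counts per gene symbol. STAR 2.7.11b, FastQC 0.12.1 and the build hg38 are named in the submitters' processing notes, and the counting tool, annotation and use of strand are not given in the sources used here. Overlapping genes may therefore share reads. Groups and replicate numbers came from the sample titles, and 0 columns were left unused.

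The deposited counts went into edgeR 4.0.16 (R 4.3.3). After filterByExpr (minimum count 10) and TMM scaling, the 12 libraries shared 1 quasi-likelihood fit of 4 group means. Benjamini-Hochberg adjustment covered the 15805 genes tested, separately for each contrast, the threshold was 0.05, and intervals are at 95%. The script was tested on simulated data with a smaller spread than in these libraries and no shared replicate effect. Its power and interval coverage at the spread of these libraries were not tested. Paralogue ratios were compared by two-sided exact permutation within the other factor. Alternatives were a replicate block, DESeq2 1.42.0, other scalings and filters, fits of only the groups compared, and left-out libraries. No replicate pair was the same library, since chi-square per degree of freedom was at least 37.2. The floor of 3 counts was 0.0953 to 0.162 CPM and covers counting error only.

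Libraries with the same replicate number deviated together from their group means, with correlations over genes of 0.195 to 0.409 (butyrate, WT), 0.147 to 0.468 (butyrate, KO), 0.210 to 0.361 (genotype, untreated) and 0.315 to 0.595 (genotype, treated). With different numbers the highest were 0.186, 0.123, 0.0692 and 0.343, in that order, so the ranges overlapped in the last contrast. Every same-number correlation exceeded 0.1, as did the highest different-number one outside the untreated genotype contrast. The numbers were taken to pair the libraries, a link read from the data and not from the labels. This pairing entered only the replicate-block alternative, and all other p-values are unpaired. The genes and lists were chosen with earlier results of these data known. All 9 genes are named, then up to 3 called genes with the largest change per partner list and contrast, and the 2 genes most correlated with each of the 9.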

Additional observations from a re-analysis of the deposited data

How the results depend on the processing

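The 21 results of the 9 genes that exceeded their standard error were repeated under 20 alternatives, which gave 412 values. Of these, 394 kept direction and side of the threshold, 11 became called, 6 lost their call and 1 reversed. Smaller differences were left out of these counts, and some changed sign. Without the libraries numbered 1, EP300 with butyrate in WT went from 0.13 to -0.27 and CREBBP from 0.02 to -0.94. The count for untreated KO against WT was 1 (EP300) when only the 2 groups compared were fitted, beside 4093 of all genes. The averaged butyrate count was 1 with the replicate block (KAT2A), beside 26.5% of all tested genes. The averaged genotype count was 2 (EP300, BRD2) with the block, beside 46.7%, and with library size only, beside 5623 genes. The block changed no other call of the 9 genes or the paralogue ratios. Between genotypes, EP300 to CREBBP and BRD2 to BRD3 each had an exact permutation adjusted p of 0.0938 with it. With libraries left out, the counts ranged from 0 to 1 for KO against WT untreated, 0 to 1 treated, 0 to 3 for averaged butyrate and 0 to 2 for averaged genotype. Calls over all genes in those fits numbered 2485 to 4318, 2014 to 4059, 1198 to 4735 and 5045 to 6774, in that order. KAT7 in treated KO against WT ranged from -0.001742 to 0.71 (reversed without replicate 1 of treated KO). Ratios that changed sign were KAT2A to KAT2B between genotypes (-0.138 to 0.143) and BRD2 to BRD3 with butyrate (-0.153 to 0.0919). The cause of these shifts was not tested.

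Over all genes, calls for butyrate in WT were 372, and 1361 with the block, 1281 by DESeq2, 63 with only 2 groups and 43 to 1884 with libraries left out. In KO they were 537, and 1852 with the block, 1483 by DESeq2, 304 with 10 counts required in every library and 48 to 2164 with libraries left out. For KO against WT they were 3574 untreated (2334 with that filter) and 3009 treated (4612 with the block, 1947 with that filter, 1802 with only 2 groups), and for averaged butyrate 2305 (4196 with the block, 1198 to 4735 with libraries left out). Of 576 values for partner genes, 108 lost their call. Partner calls for butyrate were 3 in WT and 4 in KO, and 7 in each by DESeq2.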

Other observations

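Of the 6 genes that supply acetyl-CoA, 0 passed for butyrate in either genotype, near the share of all tested genes (2.35% in WT and 3.4% in KO). Their median log2 differences were -0.41 in WT and -0.40 in KO, against 0.02 and 0 over all tested genes. PDHA1, which encodes a subunit of pyruvate dehydrogenase, was lower in KO by 1.13 untreated (SE 0.20, edgeR adjusted p = 0.0013) and by 1.18 treated (SE 0.20, adjusted p = 0.00127), at 145 ± 30.5 CPM in untreated WT and 66.0 ± 9.51 in untreated KO (SD, n = 3 libraries). PDHB, encoding the partner subunit of the same enzyme, was higher in treated KO by 0.89 (SE 0.24, adjusted p = 0.0202), at 43.5 ± 3.46 CPM in WT and 80.3 ± 11.1 in KO. The genes of 2 subunits of a single enzyme thus differed in opposite directions between the genotypes in treated cells. Neither gene was set against the other genes of its chromosome, and the cause of these differences was not tested.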
